A study of Mus musculus with 10 samples.

Results

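Hopx and 9 further genes of the alveolar type 1 cell were followed in the lungs of mice with ovalbumin-induced asthma. The 10 members were Hopx, Ager, Cldn18, Pdpn, Emp2, Aqp5, Clic5, Akap5, Cav1 and Rtkn2. They were chosen by name, with earlier results of these data known, and all 10 were found among the 24394 gene symbols of the expression table, where they occupy 23 of 66548 transcript rows. Lung RNA was sequenced from 10 female BALB/c mice, purchased at 8 weeks of age. The Saline group (n = 3) received saline, the OVA group (n = 3) was sensitized intraperitoneally with ovalbumin and an aluminium adjuvant on days 0 and 7, and for 4 days from day 12 it was challenged through the nose. The Herb group (n = 4, the DSE group of the study) went through the same ovalbumin protocol and was given 200 mg/kg of an ethanol extract of Descurainia sophia seeds by mouth on days 9 to 15. OVA vs. Saline asks what the asthma protocol changed, Herb vs. OVA what differed under the extract, and Herb vs. Saline what still differed from the controls. Whole lung tissue was sequenced, so a smaller number of alveolar type 1 cells and less RNA per cell cannot be told apart.

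The alveolar type 1 cell is the thin, spread-out cell that covers most of the gas-exchange surface of the lung and shares a basement membrane with the capillary endothelium beneath it. The cuboidal alveolar type 2 cell makes surfactant and can renew the type 1 cell after injury. HOPX is an unusually small homeodomain protein that does not bind DNA itself, and it acts by holding partners such as SRF and histone deacetylases. It marks type 1 cells in the adult lung and is switched on as these cells form. The other members carry out the functions of the thin cell, namely the receptor RAGE (Ager), a tight-junction claudin (Cldn18), the mucin-like surface protein podoplanin (Pdpn), a water channel (Aqp5), a chloride intracellular channel protein (Clic5), the coat protein of caveolae (Cav1) and anchoring or signalling proteins (Emp2, Akap5, Rtkn2).

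The values are FPKM, fragment counts that the authors divided by the length of the transcript and by the number of fragments mapped in the library. They are used here as the sum over all transcript rows of a gene unless a row is named. FPKM are shares of a library, and the libraries differed in what filled them. Protein-coding RefSeq rows of known length held 33.0 to 33.3% of fragments in Saline, 11.9 to 14.9% in OVA and 19.3 to 25.8% in Herb. Other rows were not counted in this mRNA share. The ribosomal precursor RNA Rn45s stood at 1201 to 1386, 10014 to 13531 and 3230 to 7019 FPKM. The part of this difference in the results was not tested beyond other scalings of the libraries. The second scale used here divided each library by its 75th percentile of FPKM. Quantile normalization and scaling by the mRNA share are given in the last section. The estimated depth was 14800000 to 29500000 fragments per library. Fold changes are differences of log2(FPKM + 1) from limma, with p-values adjusted over all 11205 gene sums that had a mean of at least 1 FPKM, and a call is an adjusted p under 0.05. The labels number the samples of a group without stating how each was collected, so the p-values measure only the spread between these samples. Hopx was put forward by the study on these same libraries, so its direction is not independent evidence.

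Every tested member fell in the asthmatic lung. In OVA, 9 of 9 tested members were lower than in Saline, with a median log2 fold change of -2.99 against -0.75 for all gene sums, and in each of the 9 members every OVA library lay below every Saline library. Of all gene sums tested, 57.9% were called lower in this comparison and 63% were lower without overlap, so the count is read against those shares. After rescaling to the 75th percentile the median of all gene sums moved to 0.07, and the split of all calls moved from 6485 lower and 368 higher to 1922 lower and 2695 higher. On that scale 8 of 9 members were called lower, with a median of -1.87, against a background of 17.2% called lower, and 8 members were without overlap against 23.3% of gene sums. The exception was Aqp5, with a log2 fold change of -1.21 (adjusted p = 0.0987). After quantile normalization, which gives all libraries the same distribution of values, 5 of 9 were called lower, against 1917 of 11205 gene sums. Ager, Aqp5, Cldn18 and Akap5 were then not called.

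Mean levels in Herb lay between those of OVA and Saline in all 9 tested members. As deposited, 7 of 9 members were higher in Herb than in OVA (background 44% called higher), with a median log2 fold change of 1.35 against 0.48 for all gene sums, and 5 of 9 had no overlap (background 49.6%). After rescaling none of the 9 passed (background 0.348%), 5 of 9 had an unadjusted p under 0.05, the median was 0.70 against 0.01, and 1 member, Emp2, was without overlap (background 11%). All 9 fold changes were positive on both scales. Leaving out 1 library at a time, Hopx, Clic5 and Emp2 kept the Herb vs. OVA call as deposited under each of the 10 omissions. The levels in Herb also stayed below the controls. In Herb vs. Saline 6 of 9 members were called lower as deposited (background 22.7%) and 9 of 9 had no overlap (background 36.6%), and after rescaling 3 of 9 were called lower (background 5.11%) and 8 of 9 had no overlap (background 14.7%). After quantile normalization only Cav1 was called lower, against 382 of 11205 gene sums. The 3 genes called after rescaling were Hopx, Pdpn and Cav1. They were also the members that kept the deposited call under each omission of 1 library, while Clic5, Emp2 and Akap5 lost it without any 1 of the Saline libraries, Herb replicate 3 or Herb replicate 4, which left 3 of 9. Both comparisons that contain Herb share its 4 libraries, and both that contain OVA share its 3 libraries.

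**Figure D1:**
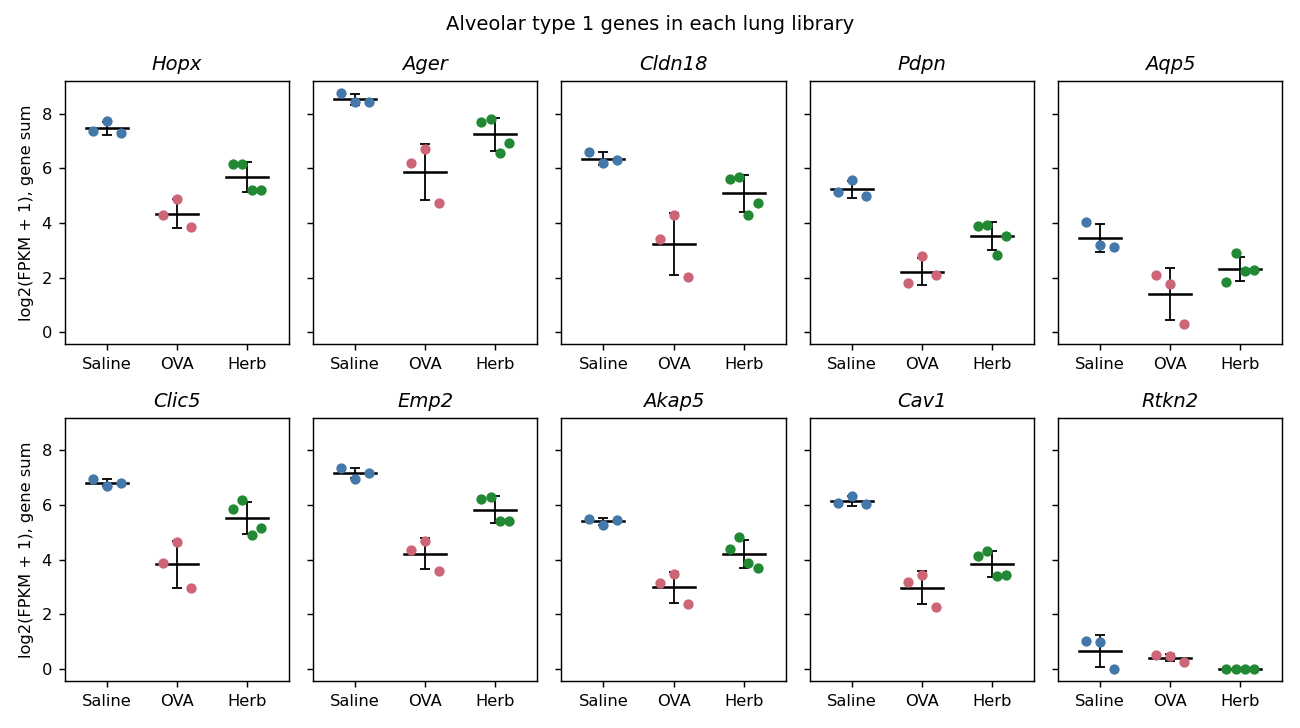
Level of each member in each library as log2(FPKM + 1) of the gene sum, with 1 point per library, the group mean as a horizontal line and the SD as a whisker. The Saline points of the 9 tested genes lie above all OVA and Herb points, and Rtkn2 stays near 0 in all groups.

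Hopx stood at 164, 210 and 155 FPKM in the Saline libraries. It stood at 18.3, 28.6 and 13.3 FPKM in OVA and at 69.7, 70.8, 35.6 and 36.3 FPKM in Herb. The 3 groups did not overlap, and Herb replicates 1 and 2 were at about the same level and above replicates 3 and 4. The group means were 176 ± 29.2 (SD, n = 3), 20.1 ± 7.82 (n = 3) and 53.1 ± 19.8 FPKM (n = 4), so OVA retained 11.4% and Herb 30.1% of the Saline level. OVA vs. Saline gave a log2 fold change of -3.13 for Hopx (SE 0.36, adjusted p = 0.000164), and 121 of 11205 gene sums had a lower fold change. In Herb vs. OVA it was higher by 1.35 (SE 0.34, adjusted p = 0.0131), and in Herb vs. Saline it remained lower, at -1.78 (SE 0.34, adjusted p = 0.0105). On the rescaled values the 3 differences were -1.99 (adjusted p = 0.0017), 0.69 (adjusted p = 0.159) and -1.30 (adjusted p = 0.0228), and the OVA and Herb libraries overlapped.

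The table resolves Hopx into 3 transcripts that use different starts. On the minus strand of chromosome 5 (GRCm38.p6, gene span chr5:77086986-77115123), NM_175606 starts at the outer end of the locus. In the GENCODE annotation of the same build, NM_001159900 starts 19844 bases further in and NM_001159901 another 24 bases in. All 3 contain the same 219 coding bases, so they differ in their leader exons and not in the encoded protein. The 250 bases before the outer and the inner RefSeq start are shown because the levels of the transcripts from these starts differed in how far they fell. The outer RefSeq start lies 2 bases from the GENCODE start of NM_175606, and the single inner one lies between those of the inner transcripts, 10 and 14 bases from them. The windows are printed 5′ to 3′ on the transcribed strand from RefSeq (GRCm38.p6), and the capitals mark a CArG box, a run of A and T between CC and GG, the element to which the HOPX partner SRF binds.

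Hopx outer start, chr5:77115124-77115373, minus strand: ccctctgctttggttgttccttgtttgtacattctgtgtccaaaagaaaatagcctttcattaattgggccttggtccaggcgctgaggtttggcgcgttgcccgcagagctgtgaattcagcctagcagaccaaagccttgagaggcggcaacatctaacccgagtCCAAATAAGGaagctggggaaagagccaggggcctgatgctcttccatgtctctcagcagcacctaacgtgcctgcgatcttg
Hopx inner start, chr5:77095268-77095517, minus strand: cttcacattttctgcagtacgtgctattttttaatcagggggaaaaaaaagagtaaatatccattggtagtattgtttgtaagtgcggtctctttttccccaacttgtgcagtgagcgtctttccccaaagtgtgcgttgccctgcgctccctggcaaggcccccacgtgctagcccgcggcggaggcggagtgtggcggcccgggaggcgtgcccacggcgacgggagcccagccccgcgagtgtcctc

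The outer-start transcript NM_175606 was the most abundant Hopx transcript in the controls and was far lower, though still detected, in asthma. Its levels were 99.6, 152 and 76.0 FPKM in Saline, 3.48, 8.61 and 1.16 FPKM in OVA and 10.1, 15.3, 6.67 and 7.09 FPKM in Herb. OVA and Herb libraries overlapped, and both lay far below the lowest Saline library. OVA held 4.04% and Herb 8.96% of the Saline mean. The row fell in OVA vs. Saline (log2 fold change -4.55, SE 0.52, adjusted p = 0.000505 over 30194 rows) and in Herb vs. Saline (-3.36, SE 0.49, adjusted p = 0.0119), and Herb vs. OVA did not pass (1.18, SE 0.49, adjusted p = 0.0898). Rescaling left the calls of the outer-start row as they were (-3.75, adjusted p = 0.00254, in OVA vs. Saline, and -3.07, adjusted p = 0.0205, in Herb vs. Saline).

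Transcripts from the inner start kept more of their level. NM_001159900 stood at 31.4, 39.9 and 45.4 FPKM in Saline, 2.43, 3.32 and 6.47 FPKM in OVA and 31.2, 24.7, 8.77 and 11.0 FPKM in Herb. As deposited, no OVA library reached the lowest Herb library. On that scale the row fell in OVA vs. Saline (log2 fold change -3.04, adjusted p = 0.00122) and was higher in Herb than in OVA (1.88, adjusted p = 0.0177). In Herb vs. Saline it had a fold change of -1.16 (adjusted p = 0.134). After rescaling the row was still called lower in OVA (-2.22, adjusted p = 0.0073), and Herb vs. OVA was not called (1.34, adjusted p = 0.113). NM_001159901 stood at 33.0, 17.7 and 34.0 FPKM in Saline, 12.4, 16.7 and 5.65 FPKM in OVA and 28.4, 30.8, 20.1 and 18.2 FPKM in Herb. All 4 Herb libraries lay inside the Saline range. It was lower in OVA than in Saline as deposited (log2 fold change -1.27, adjusted p = 0.0278) and not after rescaling (-0.40, adjusted p = 0.460). Herb vs. OVA was just short of passing (1.09, adjusted p = 0.05005), and in Herb vs. Saline it was at -0.18 (adjusted p = 0.801). Summed, the inner-start rows averaged 67.1 ± 11.2 FPKM in Saline (SD, n = 3), 15.7 ± 4.01 in OVA (n = 3) and 43.3 ± 16.6 in Herb (n = 4), which is 23.3% and 64.5% of the Saline mean.

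The share of Hopx carried by the outer-start transcript does not depend on the scaling of a library. It was 60.7, 72.6 and 48.9% in Saline, 19.0, 30.1 and 8.75% in OVA and 14.5, 21.6, 18.7 and 19.6% in Herb. All 7 ovalbumin libraries lay below the 3 Saline libraries, and Herb lay inside the range of OVA. With so few libraries the exact permutation test (two-sided) gave p = 0.1 in OVA vs. Saline, p = 0.0571 in Herb vs. Saline, the smallest values these designs allow, and p = 0.914 in Herb vs. OVA. Adjusted over 12 share tests these exact permutation values became 0.171, 0.171 and 0.914. StringTie divides shared fragments among transcripts by a model, so the split between rows is less certain than the gene sum. Hopx also overlaps the long noncoding RNA Hopxos and a snoRNA gene in RefSeq, and sources differ on whether the libraries kept strand, so a contribution of fragments from these genes was not tested.

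**Figure D2:**
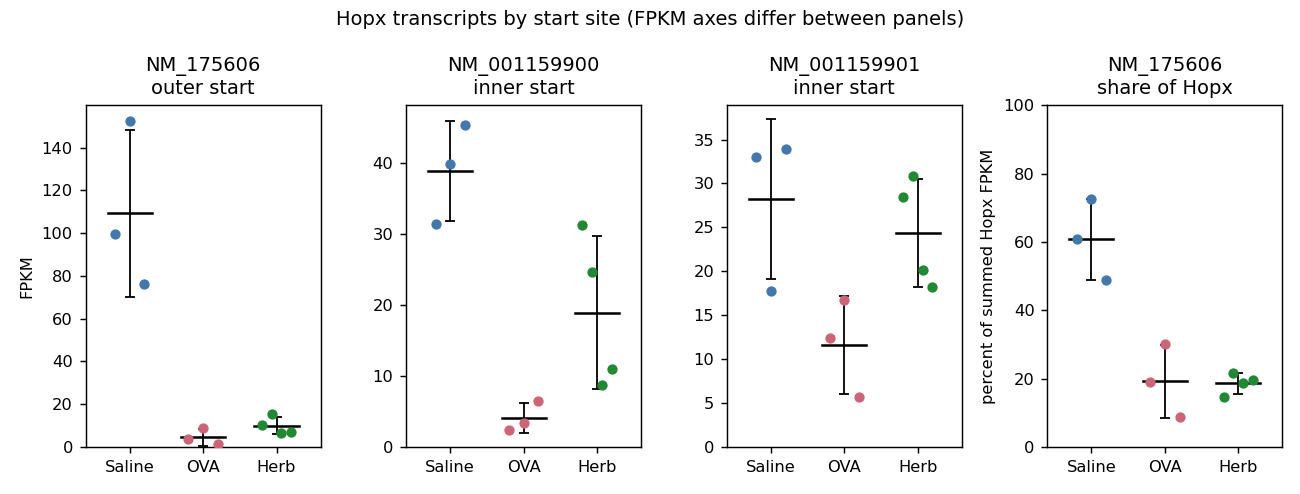
FPKM of the 3 Hopx transcripts in each library (linear axes from 0 that differ between panels) and the percent of summed Hopx FPKM held by the outer-start transcript NM_175606. Points are libraries, lines are group means and whiskers are SD, and the share is 48.9 to 72.6% in Saline and 8.75 to 30.1% in the 7 ovalbumin libraries.

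Ager encodes RAGE, a receptor for advanced glycation products and S100 proteins that is far more abundant in type 1 cells than elsewhere, and it was the highest member in each group mean. Its gene (chr17:34597460-34600937) gave 430, 339 and 338 FPKM in Saline, 72.1, 102 and 25.2 FPKM in OVA and 204, 220, 92.8 and 121 FPKM in Herb. Herb replicate 3 lay below OVA replicate 2, and the Saline libraries were apart from all others. Ager fell in OVA vs. Saline (log2 fold change -2.66, SE 0.51, adjusted p = 0.0016). It was higher in Herb than in OVA (1.37, SE 0.47, adjusted p = 0.0417), a call that was lost without any 1 of the Saline libraries, OVA replicates 1 and 3 or Herb replicates 1, 2 and 4 (0.80 without OVA replicate 3), and in Herb vs. Saline it was at -1.28 (SE 0.47, adjusted p = 0.0745). The transcript NM_007425 held 66.2 ± 2.12% of Ager in Saline (SD, n = 3), 72.9 ± 4.99% in OVA (n = 3) and 72.1 ± 1.15% in Herb (n = 4), a difference of 6.74 percentage points for OVA vs. Saline (exact permutation p = 0.2, adjusted 0.3) and of 5.95 for Herb vs. Saline, where no libraries overlapped and the exact permutation p was 0.0571, the smallest possible (adjusted 0.171).

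The RAGE axis as a list held 10 genes found of 12, ligands, the cytoplasmic partner Diaph1 and downstream genes, of which 8 were tested. As deposited 5 of 8 were lower in OVA (background 57.9%), with a median log2 fold change of -2.04. After rescaling 2 were lower (background 17.2%) and 2 higher (2695 of all 11205 gene sums), with a median of -0.94. Neither count of lower genes was far from the share of all gene sums. S100a8, a calgranulin of neutrophils and myeloid cells and a ligand of RAGE, fell in OVA vs. Saline (log2 fold change -2.78, adjusted p = 0.00657), from 7.61 to 53.1 FPKM in Saline to 1.499 to 3.27 FPKM, and was not called after rescaling (adjusted p = 0.0535). S100a9, its partner, had a log2 fold change of -4.93 that did not pass (adjusted p = 0.0858). The 2 genes with the least negative values were Nfkb1, a subunit of NF-kappa-B, at -0.38 (adjusted p = 0.136) and Diaph1, listed as Diap1, at -0.33 (adjusted p = 0.110). On the rescaled values both of these were higher in OVA, by 0.66 (adjusted p = 0.0169) and 0.62 (adjusted p = 0.0256).

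Cldn18 encodes a claudin that seals alveolar tight junctions. Its levels were 96.1, 71.2 and 77.1 FPKM in Saline, 9.54, 18.6 and 3.08 FPKM in OVA and 47.4, 50.8, 18.5 and 25.7 FPKM in Herb. Herb replicate 3 lay just below OVA replicate 2, and the Saline libraries were above all others. It fell in OVA vs. Saline (log2 fold change -3.12, SE 0.56, adjusted p = 0.00112) and was the member with the largest difference in Herb vs. OVA (1.84, SE 0.52, adjusted p = 0.0204), while Herb vs. Saline did not pass (-1.27, SE 0.52, adjusted p = 0.0999). The Herb vs. OVA call was lost without any 1 of OVA replicates 1 and 3 and Herb replicates 1 and 2, with 1.24 without OVA replicate 3.

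Claudin-18 has a lung form and a stomach form that start from separate promoters 7204 bases apart. The upstream sequences of both starts are shown because in 9 of 10 libraries the transcripts of the outer start were near 0. Capitals mark CAAGTG, the core letters bound by the lung transcription factor NKX2-1.

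Cldn18 inner start, chr9:99710064-99710313, minus strand: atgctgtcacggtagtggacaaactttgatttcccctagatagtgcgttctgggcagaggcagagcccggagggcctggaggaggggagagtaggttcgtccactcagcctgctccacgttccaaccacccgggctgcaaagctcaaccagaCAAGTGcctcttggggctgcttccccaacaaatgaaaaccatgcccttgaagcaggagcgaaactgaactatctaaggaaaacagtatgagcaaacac
Cldn18 outer start, chr9:99717268-99717517, minus strand: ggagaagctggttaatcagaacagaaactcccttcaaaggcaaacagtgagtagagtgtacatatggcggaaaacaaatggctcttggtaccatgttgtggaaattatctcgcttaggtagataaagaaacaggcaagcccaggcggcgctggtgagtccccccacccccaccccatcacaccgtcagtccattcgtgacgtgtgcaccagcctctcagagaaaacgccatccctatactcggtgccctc

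The inner-start transcripts NM_019815 and NM_001194922 averaged 54.9 and 26.3 FPKM in Saline, 8.44 and 1.95 FPKM in OVA and 23.2 and 11.3 FPKM in Herb. Both fell in OVA vs. Saline (log2 fold change -2.76, adjusted p = 0.00328, and -3.43, adjusted p = 0.00277), and only NM_001194922 passed in Herb vs. OVA (2.12, adjusted p = 0.0281, against 1.45, adjusted p = 0.0521). The outer-start transcripts NM_001194921 and NM_001194923 were listed at no more than 0.549 FPKM in 9 of the 10 libraries. In Herb replicate 3 they were listed at 2.10 and 2.09 FPKM. NM_019815 held on average 67.1% of Cldn18 in Saline, 85.4% in OVA and 64.5% in Herb, and OVA did not overlap with either other group. The OVA libraries were at 75.3, 81.1 and 99.95%. In OVA replicate 3, the highest of them, NM_001194922 was listed at 0.00148 FPKM. That is under the estimated level of 3 fragments for this row in that library, 0.105 FPKM. The exact permutation values were at their smallest in OVA vs. Saline (p = 0.1) and in Herb vs. OVA (p = 0.0571), both 0.171 when adjusted over the 12 share tests. As the smallest values that designs of this size allow lie above 0.05, none of the 12 share tests could pass, whatever the shares.

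Pdpn, podoplanin, is a mucin-like surface glycoprotein that also marks lymphatic endothelium and mesothelium. It measured 34.1, 46.8 and 30.5 FPKM in Saline, 2.45, 5.88 and 3.28 FPKM in OVA and 13.6, 14.0, 6.04 and 10.4 FPKM in Herb. The 3 groups did not overlap, although Herb replicate 3 came within a fraction of a unit of OVA replicate 2. Pdpn had a log2 fold change of -3.01 in OVA vs. Saline (SE 0.34, adjusted p = 0.000163), was higher in Herb than in OVA by 1.31 (SE 0.32, adjusted p = 0.0125) and stayed below Saline in Herb (-1.70, SE 0.32, adjusted p = 0.0105). Without OVA replicate 1 the Herb vs. OVA difference was 1.09 and not called. In the markers of the other cell types that express Pdpn, 4 of 4 tested lymphatic endothelial genes and 2 of 4 tested mesothelial genes were lower in OVA as deposited (background 57.9%), and 2 and 1 after rescaling (background 17.2%). The summed level of the lymphatic list went from 82.6 to 103 FPKM in Saline to 7.99 to 24.2 FPKM in OVA, that of the mesothelial list from 41.5 to 46.9 to 13.2 to 24.0 FPKM, most of it the keratin Krt19 (29.9 to 41.2 and 12.7 to 19.6 FPKM), which was not called after rescaling (0.13, adjusted p = 0.557). Their part in the Pdpn result was not tested.

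Emp2 encodes a tetraspan membrane protein of the epithelial surface. It was at 163, 124 and 144 FPKM in Saline, 19.5, 24.8 and 11.1 FPKM in OVA and 73.1, 77.4, 41.4 and 41.6 FPKM in Herb. The groups were fully apart, and Emp2 was the only member for which OVA and Herb also stayed apart after rescaling. It fell in OVA vs. Saline (log2 fold change -2.95, SE 0.34, adjusted p = 0.000167), and in Herb vs. OVA it had the lowest adjusted p of the members (1.61, SE 0.32, adjusted p = 0.00742, and 0.96, adjusted p = 0.0863, after rescaling). Herb vs. Saline gave -1.34 (SE 0.32, adjusted p = 0.0198).

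Aqp5, the apical water channel of type 1 cells and of airway submucosal glands, had the lowest level of the tested members. It measured 15.6, 8.14 and 7.65 FPKM in Saline, 3.25, 2.40 and 0.241 FPKM in OVA and 2.61, 6.46, 3.73 and 3.84 FPKM in Herb. OVA and Herb overlapped, and the spread within groups was wide, with OVA replicate 3 far below the other two. The fall in OVA vs. Saline passed as deposited (log2 fold change -2.06, SE 0.47, adjusted p = 0.00405), while Herb vs. OVA (0.93, SE 0.44, adjusted p = 0.110) and Herb vs. Saline (-1.14, SE 0.44, adjusted p = 0.0846) did not. An overlapping long noncoding RNA, Gm34765, shares the locus. Among the other aquaporins 3 of 6 were tested. As deposited 2 of 3 were lower in OVA (background 57.9%), and after rescaling 1 of 3 (background 17.2%). Aqp1, the water channel of capillary endothelium, fell from 50.8 to 86.8 FPKM in Saline to 7.35 to 23.4 FPKM in OVA (log2 fold change -2.26, adjusted p = 0.00135). Aqp4 had -0.64 (adjusted p = 0.0384) and after rescaling 0.03 (adjusted p = 0.921), and Aqp11 had -0.24 (adjusted p = 0.317).

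Clic5 encodes a chloride intracellular channel protein that links the membrane to the actin cortex. Its levels were 122, 102 and 111 FPKM in Saline, 13.6, 24.1 and 6.71 FPKM in OVA and 56.6, 71.4, 28.9 and 34.8 FPKM in Herb. No libraries of different groups overlapped. Clic5 fell in OVA vs. Saline (log2 fold change -2.99, SE 0.45, adjusted p = 0.000434), was higher in Herb than in OVA (1.70, SE 0.42, adjusted p = 0.0125), and just passed as lower in Herb vs. Saline (-1.29, SE 0.42, adjusted p = 0.0495).

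Akap5 encodes a scaffold that anchors protein kinase A and calcineurin near the membrane. It measured 44.0, 37.3 and 42.5 FPKM in Saline, 7.83, 10.1 and 4.17 FPKM in OVA and 20.1, 27.0, 13.5 and 11.95 FPKM in Herb, without overlap between groups. Of the members Akap5 kept the largest part of its Saline level in Herb, 44.0%. Its log2 fold changes were -2.40 in OVA vs. Saline (SE 0.34, adjusted p = 0.000349), 1.19 in Herb vs. OVA (SE 0.32, adjusted p = 0.0166) and -1.21 in Herb vs. Saline (SE 0.32, adjusted p = 0.0265). Herb vs. OVA was 0.88 and not called without OVA replicate 3.

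Cav1 encodes caveolin-1, which coats the flask-shaped caveolae of type 1 cells and of capillary endothelium. It was at 65.6, 79.8 and 64.4 FPKM in Saline, 8.06, 9.82 and 3.87 FPKM in OVA and 16.7, 19.0, 9.48 and 9.89 FPKM in Herb. The highest OVA library reached into the Herb range, and the Saline libraries lay far above both. Cav1 had the lowest fold change of the members in OVA vs. Saline (log2 fold change -3.18, SE 0.34, adjusted p = 0.000151) and in Herb vs. Saline (-2.32, SE 0.32, adjusted p = 0.00753), where 61 of 11205 gene sums lay below it. Herb vs. OVA did not pass (0.86, SE 0.32, adjusted p = 0.0553). Herb thus retained 19.7% of the Saline mean of Cav1, the lowest percentage among the tested members, whose others ranged up to 44.0%.

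Cav1 also has an outer and an inner start, 1305 bases apart, which give the longer alpha and the shorter beta form of the protein. The alpha transcript NM_007616 held 64.8, 68.5 and 68.4% of Cav1 in Saline, 54.7, 51.9 and 47.5% in OVA and 54.3, 48.4, 42.1 and 49.7% in Herb. As for Hopx, all 7 ovalbumin libraries lay below the 3 Saline libraries, and the exact permutation test gave the smallest p the design allows (p = 0.1 against Saline for OVA and p = 0.0571 for Herb, both 0.171 after adjustment over the 12 share tests). NM_007616 fell in OVA vs. Saline (log2 fold change -3.40, adjusted p = 0.000471) and in Herb vs. Saline (-2.69, adjusted p = 0.00831), with 0.71 in Herb vs. OVA (adjusted p = 0.134). The beta transcript NM_001243064 had -2.46 (adjusted p = 0.000505), -1.62 (adjusted p = 0.0175) and 0.84 (adjusted p = 0.0400) in the same 3 comparisons. After rescaling, Herb vs. OVA was not called for the beta transcript (0.32, adjusted p = 0.450).

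The other caveolar genes were Cav2 and Cav3, the cavins and 2 membrane-bending proteins, with 6 of 8 tested. In OVA 5 of 6 were lower as deposited (median log2 fold change -1.69, background 57.9%) and 2 of 6 after rescaling (median -0.70, background 17.2%). Cav2, the binding partner of caveolin-1, went from 87.0, 108 and 89.6 FPKM in Saline to 4.47, 11.3 and 5.13 FPKM in OVA and 25.5, 34.5, 14.9 and 16.2 FPKM in Herb. Its log2 fold change of -3.68 (SE 0.37, adjusted p = 0.000149) lay below that of Cav1, and in Herb vs. OVA it was called higher as deposited (1.60, adjusted p = 0.00881). Sdpr, the current Cavin2, fell by 3.14 (SE 0.39, adjusted p = 0.000197). Ptrf, the current Cavin1, which every caveola needs, fell by 1.31 as deposited (adjusted p = 0.00723) and was not called after rescaling (-0.18, adjusted p = 0.669), and Pacsin2 had -0.34 (adjusted p = 0.609).

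Rtkn2, which is enriched in type 1 cells, was barely present. The 3 Saline libraries list it at 1.04, 0.967 and 0 FPKM, the OVA libraries at 0.439, 0.374 and 0.199 FPKM and all 4 Herb libraries at 0. Its mean of 0.302 FPKM over the libraries was under the minimum for testing. A listed 0 can be a failed estimate in these data, since 9 of the 10 libraries list even the housekeeping gene Gapdh at 0, and no fold change is given for Rtkn2.

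**Figure D3:**
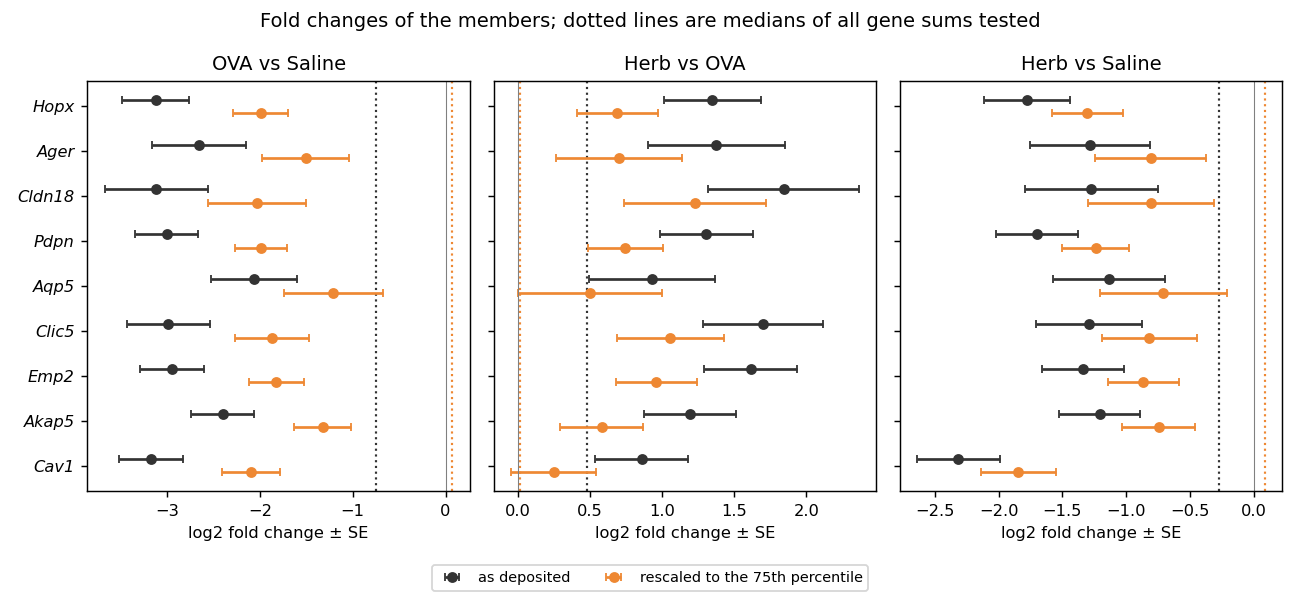
Log2 fold change of the 9 tested members with its SE from limma in the 3 comparisons, on FPKM as deposited (dark) and after rescaling to the 75th percentile (orange), with dotted lines at the medians of all 11205 gene sums. All member values lie below the median of all gene sums in OVA vs. Saline and Herb vs. Saline and above it in Herb vs. OVA, and rescaling moves the members and the medians together toward 0.

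In the control lung the members fell into an order of levels per length of transcript. Ager was highest (369 ± 52.9 FPKM, SD, n = 3), followed by Hopx (176 ± 29.2), Emp2 (144 ± 19.9), Clic5 (112 ± 9.72), Cldn18 (81.5 ± 13.0), Cav1 (69.9 ± 8.59), Akap5 (41.3 ± 3.53), Pdpn (37.1 ± 8.59), and Aqp5 (10.5 ± 4.43), with Rtkn2 at the values given above. In this order 3 pairs of neighbours had overlapping Saline libraries, namely Hopx and Emp2, Cldn18 and Cav1, and Akap5 and Pdpn. OVA as a percentage of Saline was narrow across the 9 tested members, from 10.4% (Cav1 and Pdpn) to 18.8% (Aqp5), while Herb ranged from 19.7% (Cav1) over 29.7% (Pdpn) and 30.1% (Hopx) to 39.8 to 44.0% in the other 6.

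Fold changes in OVA vs. Saline also went with the level of a gene, so each member is best read beside genes of like level. The 1 added to FPKM before the log by itself draws fold changes of low genes toward 0. With 0.1 added in its place the median of all gene sums was -1.01 and not -0.75. Among the 451 gene sums of 20 to 100 FPKM, the median log2 fold change was -2.06 and the lower quartile -2.61. Hopx, Emp2, Clic5, Cldn18 and Cav1 lay below this quartile, and Akap5 (-2.40) lay between quartile and median. For the 3435 gene sums of 5 to 20 FPKM the median was -1.19 and the lower quartile -1.66, and Pdpn and Aqp5 lay below it. Ager (-2.66) lay above the lower quartile of -2.81 of the 69 gene sums over 100 FPKM. Rescaling left these positions as they were, with Akap5 (-1.32) and Ager (-1.51) inside the quartiles (lower quartiles -1.54 and -1.67) and the other 7 members below them.

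**Figure D4:**
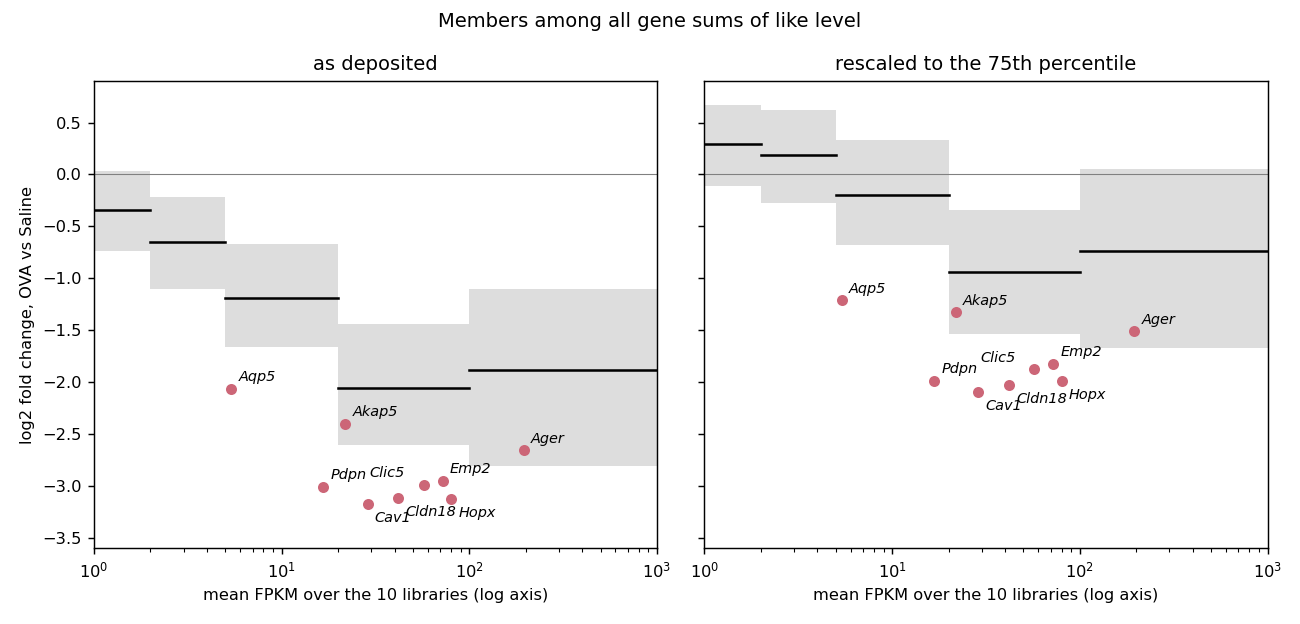
Log2 fold change in OVA vs. Saline against mean FPKM over the 10 libraries (log axis), as deposited and after rescaling. Black lines are medians and grey bands the quartiles of all gene sums in 5 classes of level, red points are the members, and 7 of the 9 members lie below the band of their class on both scales.

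A further 22 genes known from type 1 cells were read beside the members. Of the 21 tested, 18 were lower in OVA as deposited (background 57.9%), with a median log2 fold change of -2.46, and 16 after rescaling (background 17.2%), with a median of -1.35. In Herb vs. OVA 12 of 21 were called higher as deposited (background 44%) and 0 of 21 after rescaling (background 0.348%), and in Herb vs. Saline 15 of 21 (background 22.7%) and 9 of 21 (background 5.11%) were lower. Cyp2b10, a cytochrome P450, fell most (32.6, 47.1 and 30.3 FPKM in Saline, 2.49, 3.34 and 0 in OVA, log2 fold change -3.90, adjusted p = 0.000475), and was higher in Herb than in OVA (2.17, adjusted p = 0.0141). Gprc5a had -3.68 without passing (adjusted p = 0.0636). At the other end Vegfa, a growth factor that type 1 cells supply to capillaries, had -0.34 (adjusted p = 0.743) and the collagen gene Col4a4 had -0.31 (adjusted p = 0.725).

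The regulators of type 1 identity and the binding partners of HOPX had a median near that of all genes. Of 16 tested, 9 were lower in OVA as deposited (background 57.9%), with a median log2 fold change of -0.82, close to the -0.75 of all gene sums. After rescaling 2 were lower (background 17.2%) and 2 higher (2695 of all 11205 gene sums), with a median of 0.10. Lats2, a kinase of the Hippo pathway, fell on both scales (-1.78, adjusted p = 0.000205, and -0.71, adjusted p = 0.0094). Wwtr1, which encodes the Hippo effector TAZ, fell as deposited (-1.93, adjusted p = 0.00719) and was not called after rescaling (-0.93, adjusted p = 0.152). The highest values were those of the kinase gene Lats1 (0.23, adjusted p = 0.812) and of the DNA-binding partner Tead1 (0.29, adjusted p = 0.808). Yap1, the paralogue of Wwtr1, is listed at 0 in all 10 libraries.

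The counts of the other cell types are read against the 57.9% of all gene sums called lower as deposited and the 17.2% after rescaling. Counts of higher genes are read against the 368 of 11205 gene sums called higher as deposited and the 2695 after rescaling. In OVA as deposited 9 of 11 alveolar type 2 genes were lower (median log2 fold change -1.83) and 6 of 11 after rescaling (-0.83), and 9 of 12 and 6 of 12 endothelial genes were lower (-1.72 and -0.61). Sftpc, the surfactant protein C of type 2 cells, fell from 2371 to 3228 FPKM in Saline to 210 to 460 FPKM in OVA (log2 fold change -3.27, adjusted p = 0.000171). Calcrl, a receptor of capillary endothelium, fell by 3.97 (adjusted p = 0.000665). The 2 highest fold changes of each list were not called. They were those of Slc34a2 (-0.88, adjusted p = 0.189) and Abca3 (-0.00043, adjusted p = 0.999) for type 2 cells. For endothelium they were those of Tek (-0.13, adjusted p = 0.871) and Esam (1.84, adjusted p = 0.267). Fibroblast genes were lower in 5 of 7 (median -1.41), club cell genes in 3 of 6 (-1.45), leukocyte genes in 6 of 9 (-1.16), cardiac muscle genes in 2 of 6 (-1.20) and macrophage genes in 1 of 6 (-0.36). Of the eosinophil genes 2 of 3 were lower and 1 higher, and of the ciliated cell genes 1 of 7 was lower and 1 higher. After rescaling the macrophage list held 3 higher and 0 lower genes of 6, the leukocyte list 1 lower of 9, the club list 1 lower of 6, the fibroblast list 3 lower and 2 higher of 7, the cardiac list 1 lower and 1 higher of 6, the eosinophil list 2 lower and 1 higher of 3, and the ciliated list 1 higher of 7. The summed level of the leukocyte markers was 82.3 to 112 FPKM in Saline, 32.0 to 54.0 in OVA and 51.2 to 103 in Herb, and that of the macrophage markers was 104 to 219, 93.2 to 300 and 370 to 649 FPKM. Most of the macrophage sum was Chil3 (71.0 to 163, 69.7 to 256 and 320 to 593 FPKM), while Cd68 had group means of 9.56, 2.81 and 4.36 FPKM and was the gene of this list called lower in OVA. No marker of these cell type lists was at 0 in all libraries, and the part that a change in cell makeup has in the fall of the members was not tested. The lists were also not matched to the members for level.

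**Figure D5:**
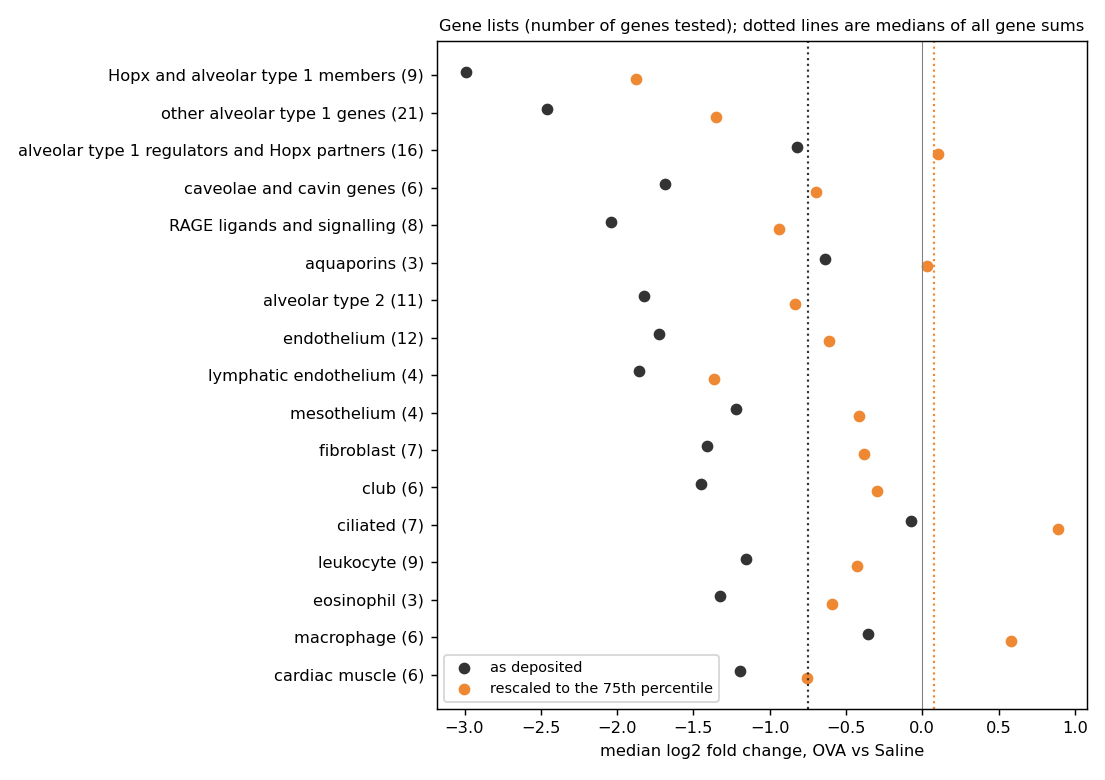
Median log2 fold change in OVA vs. Saline of the members and of 16 further gene lists, as deposited (dark) and after rescaling to the 75th percentile (orange), with the number of genes tested in brackets and dotted lines at the medians of all gene sums. The members have the lowest median of the 17 lists on both scales, at -2.99 and -1.87, followed by the other type 1 genes as deposited. The lists were not matched for level, with which fold changes also went.

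The genes whose profile over the 10 libraries was most like that of Hopx were found by the root mean square difference between centred log2(FPKM + 1) profiles. Outside the members these were Cryab, a small heat-shock protein that is itself on the list of other type 1 genes (0.169), Cdo1, which breaks down cysteine (0.170), Serpinb6b, a protease inhibitor (0.171), Sftpc (0.172) and Itm2b (0.189). Cryab stood at 30.6 to 35.6 FPKM in Saline, 1.86 to 5.55 in OVA and 4.95 to 14.8 in Herb. On the rescaled values 4 of these 5 were again the nearest, and Slc6a14 took the place of Itm2b. The nearest member was Pdpn at rank 20 (0.243), then Emp2 at rank 37, Cav1 at 43, Clic5 at 62, Akap5 at 101, Ager at 127, Cldn18 at 205 and Aqp5 at 1183 of the gene sums tested. All profiles share the same libraries and the same difference in mRNA share, and likeness of profile is given only as a description.

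No motif searched was found at more than 2 of the members. In the 250 bases upstream of the RefSeq starts of 9 members (12 windows, none for Rtkn2), both strands were searched for 5 motifs, chosen with these sequences in view. A CArG box was in 2 of 12 windows, against 1.47% of 32851 promoter windows, at the outer Hopx start (83 to 74 bases before it, CCAAATAAGG, printed above) and at Ager (200 to 191 bases before the start, CCTTTATTGG). CAAGTG was in 1 of 12, the inner Cldn18 window printed above (98 to 93 bases before the start), against 11.6% of all windows. The FOXA motif TGTTTAC was in 1 of 12, at Pdpn, against 3.17%. The TEAD motif CATTCC, in 12.6% of all windows, and the AP-1 motif TGANTCA, in 6.75%, were in none of the 12. These are matches of letters and not measured binding.

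By single transcript rows, 18 of the 23 member rows had a mean of at least 1 FPKM. In OVA vs. Saline 17 of 18 were called lower (background 41.1% of 30194 rows), the exception being the Ager row NM_001271423, which is listed at 0 in 6 libraries. In Herb vs. OVA 9 of 18 were called higher (background 31.7%), and in Herb vs. Saline 6 of 18 were called lower (background 6.26%), namely the outer-start Hopx row, both Cav1 rows, the main Pdpn row, Emp2 and the noncoding Ager row NR_073176. These counts are as deposited. After rescaling 14 of 18 were called lower in OVA vs. Saline, against 4034 of all 30194 rows. Herb vs. OVA then had 0 of 18 called higher, against 73, and Herb vs. Saline 4 of 18 called lower, against 799.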

How the data were processed

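Whole-lung RNA of 10 mice was sequenced in 3 groups. As deposited by the authors, the table holds FPKM per RefSeq transcript: reads were trimmed with cutadapt 1.10, aligned to mm10 with HISAT2 and assembled and quantified with StringTie 1.3.3b and ballgown. No read counts were used here, and depth was estimated from the spacing of the lowest FPKM values. The number of columns from other samples was 0, and 31605 rows without a symbol stayed out of gene sums. Sources disagree on whether the library kit kept strand.

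FPKM were summed per gene symbol, and log2(FPKM + 1) was fitted with limma 3.58.1 (R 4.3.3, trended variance, 3 group means, all 10 libraries), keeping entries whose mean reached 1 FPKM, with Benjamini-Hochberg adjustment over all 11205 gene sums or 30194 rows. The second scale divided each library by its 75th percentile. Shares were compared by two-sided exact permutation tests in scipy 1.17.1.

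The members, the 16 lists (158 genes, 155 found, 5 by an older symbol) and the motifs were chosen with earlier results of these data known. Named from each list were the tested genes with the lowest and the highest fold changes in OVA vs. Saline, and for the cell type lists only some of these. The 5 genes most like Hopx were taken by profile. Alternatives were another pseudocount, no filter, 3 scalings, only the groups compared, a replicate block and each library left out. Gene spans and sequences are from RefSeq, and starts and coding lengths of transcripts from GENCODE vM21 (both GRCm38.p6).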

Additional observations from a re-analysis of the deposited data

Results flagged for a closer look

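In 4 transcripts of the members Dixon's test picked out a single Herb library. The test was applied to 27 sets of 4 Herb values. The Ager transcript NM_001271423 was listed at 3.61 FPKM in Herb replicate 1 and at 0 in the other Herb libraries. The outer-start Cldn18 transcripts NM_001194921 and NM_001194923 were listed at 2.10 and 2.09 FPKM in Herb replicate 3 and at 0 in the others. The Pdpn transcript NM_001290822 was listed at 0.0461 FPKM in Herb replicate 3 and at 0 in the others. In each of the 4 the other 3 libraries are listed at 0, so the gap is the whole range whatever the value. Such a set always exceeds the 95% critical value, and the usual chance rate of 1 in 20 sets does not hold for it. The flags therefore only mark single listed values. The Pdpn value was also under the estimated level of 3 fragments in that library, 0.184 FPKM. No gene sum of a member was picked out in this way.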

How the results depend on the processing

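All 459 fold changes of the 9 tested members, over 3 comparisons and 17 alternatives, kept their direction. Relative to the threshold, 147 of the values for OVA vs. Saline stayed on the same side and 6 lost their call, against 113 and 37 for Herb vs. OVA (3 gained) and 115 and 32 for Herb vs. Saline (6 gained). The counts of gene sums here and in the paragraphs below hold both directions. In OVA vs. Saline 9 members and 6853 gene sums (6485 lower, 368 higher) were called as deposited. Quantile normalization gave 5 members and 4004 gene sums (1917 lower, 2087 higher). In Herb vs. OVA rescaling to the 75th percentile, quantile normalization and scaling by the share of mRNA fragments returned 0, 0 and 0 members by limma (unadjusted p under 0.05 in 5, 1 and 4 of 9), 0, 0 and 0 member rows (7, 5 and 6 of 18) and 90, 157 and 127 gene sums, where 7, 9 and 4982 were called as deposited. Of those gene sums 39, 56 and 36 were higher in Herb, against 4932 as deposited. In Herb vs. Saline the same scalings gave 3, 1 and 3 members and 1758, 841 and 1922 gene sums, against 6 and 2921. Of these gene sums 573, 382 and 462 were lower, against 2549 as deposited. Quantile normalization gave 2 member rows in Herb vs. Saline, against 6. Fitting only the 2 groups compared gave 4 member rows in Herb vs. OVA.

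The labels number the samples of each group from 1, but samples with the same number did not deviate together (correlations of -0.00869 to 0.0953 across genes), so they share only a number. A replicate block gave 3 member rows and 1342 gene sums in Herb vs. Saline, added Cav1 in Herb vs. OVA (0.99) and removed Clic5 and Akap5 in Herb vs. Saline. It changed no other call of a member's gene sum. As only Herb has a number 4, the block takes Herb replicate 4 out of the comparisons, and leaving out that library alone also gave 0.99 for Cav1, there without a call, and removed Clic5 and Akap5.

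Leaving out 1 library at a time gave 9 to 9 members, 15 to 17 rows and 6143 to 6862 gene sums in OVA vs. Saline, 4 to 8, 0 to 12 and 3225 to 5069 in Herb vs. OVA, and 3 to 9, 1 to 7 and 897 to 3224 in Herb vs. Saline. Herb vs. OVA had 4 members without OVA replicate 1 and also without OVA replicate 3, and its member rows were 0 and 3 without these and 3 and 5 without Herb replicates 1 and 2. Without OVA replicate 1 it had 3225 gene sums. Herb vs. Saline had 3 members without any 1 of Saline replicates 1, 2 and 3 or Herb replicates 3 and 4, with 2, 1, 3, 2 and 3 rows and 1513, 897, 1354, 1537 and 1611 gene sums in that order. The cause of these shifts was not tested. Depth per library is only estimated, and transcripts listed at 0 limit what single rows can show.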
